A study of Capra hircus with 8 samples.

Results

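The let-7 guide arms of goat mammary gland cells were followed through 8 small RNA libraries, as 8 names of the deposited table: chi-let-7a-5p, chi-let-7b-5p, chi-let-7c-5p, chi-let-7d-5p, chi-let-7e-5p, chi-let-7f-5p, chi-let-7g-5p and chi-let-7i-5p, mostly written without the goat prefix below. The names were matched exactly, with no use of their values, and each had a mature and a hairpin row, which gave 8 of 317 mature and 8 of 347 hairpin rows of known miRNAs. All 16 passed the filter on low counts, which kept 604 of the 1328 miRNA rows of a table of 5093 rows. The cells, labelled as mammary gland of the Lanshan dairy goat, were grown in 3D culture and fell into 4 groups of 2 libraries: the controls 3NC and 5NC, cells infected with a virus for circRNA28250, a circular RNA (overexpression), and cells with circRNA28250 inhibited (knockdown). The level of the circRNA itself was not analysed here, because small RNA reads do not measure it. The age and number of the animals are not given, nor whether 2 libraries of a group stem from different cultures, so a p-value here refers to the spread of libraries, possibly a technical one. Each control was set against the group named beside it in the series text (5NC with overexpression, 3NC with knockdown), a pairing that the labels do not state.

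Let-7 is a conserved miRNA family that accumulates as cells differentiate and is held low in many stem and progenitor cells, where the RNA-binding protein LIN28 blocks the processing of its precursors. Each member is cut from a hairpin precursor by Drosha and Dicer, and the 5p arm is usually the guide strand that enters an Argonaute protein. The 5p arms share their seed, the bases that choose target transcripts, and differ from each other at few positions outside it. Known targets of the family in mammals include the RAS genes, HMGA2, MYC and LIN28 itself. Because members are near copies of each other and the deposited counts do not tell how a read that fits several members was assigned, the split between members is uncertain one by one, more so than their sum.

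By the RefSeq gene table of the goat assembly ARS1.2, in which all 8 names matched a gene, members lie in several places. MIRLET7A and MIRLET7B neighbour each other within 10000 bases, as do MIRLET7D and MIRLET7F. MIRLET7C lies next to the gene of miR-99a and MIRLET7E next to that of miR-99b, whereas MIRLET7G and MIRLET7I have no other miRNA gene within that distance. Further genomic copies of a member were not analysed here, and a mature count cannot tell copies apart.

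Depth differed widely. Library totals ran from 6588354 to 32066029 reads, but the miRNA rows held 1734531 to 5039336 reads in the controls and in the first overexpression library, 399780 in the second overexpression library, and 177449 and 122435 in the knockdown libraries. The first knockdown library held 27.3% ribosomal RNA and the second 43.9% predicted piRNAs. The first 5NC library stood apart, with Spearman correlations over the 604 rows tested of 0.50 to 0.63 with the other 7 libraries, where the 3NC libraries reached 0.88 with each other. The knockdown libraries were also distant, with 0.56 to 0.67 with 3NC, the second 5NC library and the first overexpression library. They had 0.74 with each other, and 0.70 and 0.77 with the second overexpression library. Since the material was bulk, fewer cells of a type and less RNA per cell cannot be told apart.

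In the mature rows the 8 members summed to 325058 and 474805 reads in 3NC, 918854 and 353014 in 5NC, 1353134 and 20229 with overexpression, and 15851 and 10695 with knockdown. As a share of all known mature reads this was 31.0% and 33.7% in 3NC, 32.7% and 22.1% in 5NC, 41.8% and 10.5% with overexpression, and 15.1% and 17.2% with knockdown. The family was thus a large part of the mature reads in every library, lowest in the second overexpression library and in both knockdown libraries. Those are also the 3 libraries with the fewest miRNA reads, and the part of that in the let-7 share was not tested. The lowest counts of let-7d-5p, the rarest member in 5 of the 8 libraries, were 200 reads in the second overexpression library and 209 in the second knockdown library.

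Let-7b-5p and let-7a-5p were the main members. Levels are given as CPM, reads per 1000000 miRNA reads after TMM scaling, which for mature arms of nearly the same length needs no length term. Levels of different members still carry the uncertain split of reads named above. Chi-let-7b-5p stood at 153581 and 181056 CPM in 3NC, 79695 and 92152 CPM in 5NC, 349131 and 27122 CPM with overexpression, and 11450 and 15259 CPM with knockdown. It was the most abundant known mature row in both 3NC libraries, the first overexpression library and the second knockdown library, and ranked between 3 and 5 of 317 elsewhere. Chi-let-7a-5p stood at 59574 and 62683 CPM in 3NC, 20737 and 30256 CPM in 5NC, 94776 and 6963 CPM with overexpression, and 7039 and 8794 CPM with knockdown. In CPM, for both members, the knockdown libraries lay below all 4 control libraries, and the overexpression libraries lay on both sides of the controls. As a percentage of miRNA reads, with no TMM factor, let-7b-5p still lay lower with knockdown (2.36% and 4.01%) than in 5NC (5.54% and 7.07%), but let-7a-5p overlapped, with 1.45% and 2.31% against 1.44% and 2.32%.

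Let-7c-5p, let-7d-5p and let-7e-5p had another profile, with their highest level in the first 5NC library. In that library chi-let-7c-5p reached 119177 CPM against 25109 CPM in the second 5NC library, with 11322 and 10581 CPM in 3NC, 16693 and 1733 CPM with overexpression, and 8552 and 2488 CPM with knockdown. Let-7d-5p had 24392 CPM there against 1216 CPM in the second 5NC library, 1087 and 1561 CPM in 3NC, 1370 and 401 CPM with overexpression, and 2096 and 650 CPM with knockdown. Let-7e-5p had 11679 CPM there against 1199 CPM, with 2073 and 1915 CPM in 3NC, 2858 and 479 CPM with overexpression, and 1037 and 690 CPM with knockdown. Outside the first 5NC library let-7d-5p thus reached at most 2096 CPM and let-7e-5p at most 2858 CPM.

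Let-7f-5p, let-7g-5p and let-7i-5p were spread less between groups. Let-7f-5p had 5244 and 5257 CPM in 3NC, 1521 and 2052 CPM in 5NC, 8035 and 749 CPM with overexpression, and 4359 and 1953 CPM with knockdown. Let-7g-5p had 2635 and 2417 CPM in 3NC, 1221 and 994 CPM in 5NC, 3949 and 1522 CPM with overexpression, and 3678 and 1368 CPM with knockdown. Let-7i-5p had 8819 and 8333 CPM in 3NC, 4104 and 2808 CPM in 5NC, 20178 and 1552 CPM with overexpression, and 5167 and 2055 CPM with knockdown. All 3 were lower in both 5NC libraries than in both 3NC libraries, and for all 3 the overexpression libraries enclosed the knockdown range, apart from let-7g-5p, whose second knockdown library lay below the second overexpression library.

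**Figure D1:**
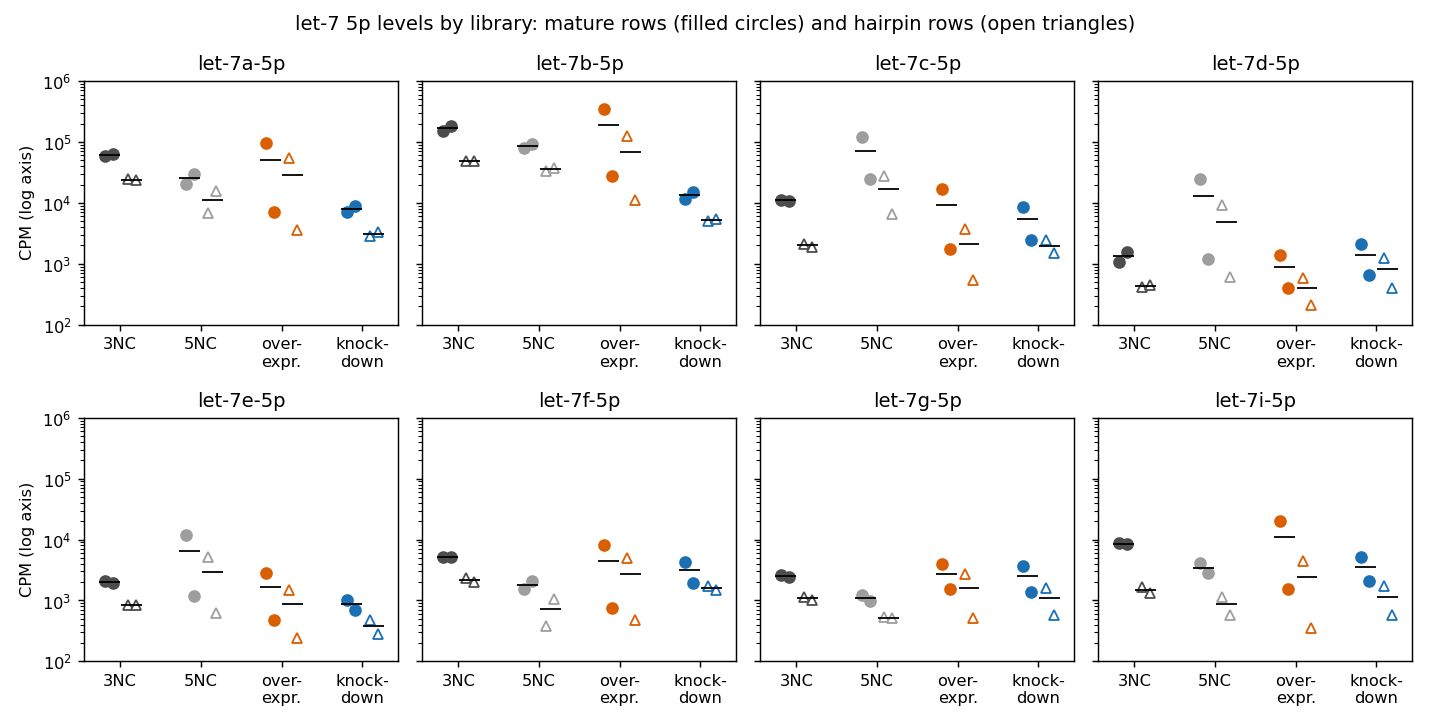
Levels of the 8 let-7 5p names in CPM (log axis) by group; filled circles are mature rows, open triangles hairpin rows, 1 point per library, and the black line is the mean of 2 libraries. Let-7a-5p, let-7b-5p, let-7c-5p and let-7e-5p have their lowest group mean with knockdown, and let-7c-5p, let-7d-5p and let-7e-5p have 1 high 5NC library.

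As means, let-7b-5p had 167318 ± 19428 CPM (SD, n = 2) in 3NC and 188127 ± 227694 CPM with overexpression, a difference within the spread of the latter group, against 85924 ± 8809 CPM in 5NC and 13354 ± 2693 CPM with knockdown. Its order of group means was thus overexpression, 3NC, 5NC and knockdown, and 3NC, 5NC and knockdown did not overlap. For let-7a-5p the means were 61128 ± 2198 CPM (3NC), 50869 ± 62093 CPM (overexpression), 25497 ± 6731 CPM (5NC) and 7916 ± 1241 CPM (knockdown), and again 3NC, 5NC and knockdown did not overlap. Let-7c-5p led in 5NC with 72143 ± 66516 CPM, followed by 3NC with 10951 ± 524 CPM, overexpression with 9213 ± 10578 CPM and knockdown with 5520 ± 4288 CPM. In this order 5NC did not overlap with 3NC, whereas overexpression overlapped with both of its neighbours. The SD of let-7d-5p and let-7e-5p in 5NC exceeded the mean, at 12804 ± 16388 CPM and 6439 ± 7411 CPM.

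Hairpin rows followed their mature rows at a lower level. The mature row held 57.1% to 86.2% of the reads of both rows of a name, over the 8 names and 8 libraries, so a mature row always held more reads than the hairpin row of its name. For the family the figure was 70.5% to 77.5%, against 63.1% to 72.9% for all known miRNAs, and the family lay above that figure in 7 of 8 libraries, the exception being the first overexpression library with 71.6% against 71.8%. Let-7i-5p and let-7c-5p had the highest medians, 81.7% and 80.3%. In the second knockdown library let-7c-5p stood at 62.6%, against 76.0% to 85.0% in the other 7. The hairpin rows of let-7b-5p had 48638 and 48396 CPM in 3NC, 33164 and 37788 CPM in 5NC, 125207 and 11015 CPM with overexpression, and 5134 and 5364 CPM with knockdown, the same order of libraries as in the mature rows apart from the 3NC pair. A separate row for the let-7 precursor family of the Rfam database held few reads, 96 to 20751, equal to 0.247% to 2.17% of the let-7 5p reads (mature and hairpin) of a library.

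The make-up of the family was read as the share of each member in the summed mature let-7 5p reads of a library, a value that needs no scaling between libraries. Exact 95% binomial intervals of these shares reached at most 0.949 percentage points to either side and cover counting error only. Let-7b-5p made up 62.9% and 66.1% of the family in 3NC and 70.2% and 66.9% with overexpression. In 5NC it made up 30.4% and 59.2%, and with knockdown 26.4% and 45.9%. The let-7b-5p shares of the overexpression libraries thus lay close to those of 3NC, although the let-7b-5p levels of these 2 libraries were farther apart than those of any other group.

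Sorted after the values were seen, and therefore without a test, the members formed 3 sets. Let-7a-5p and let-7b-5p together took 87.2% and 89.0% of the family in 3NC, 38.3% and 78.6% in 5NC, 89.3% and 84.1% with overexpression, and 42.6% and 72.3% with knockdown. Let-7c-5p, let-7d-5p and let-7e-5p took 5.93% and 5.13% in 3NC, 59.1% and 17.7% in 5NC, 4.21% and 6.45% with overexpression, and 26.9% and 11.5% with knockdown. Let-7f-5p, let-7g-5p and let-7i-5p took 6.83% and 5.85% in 3NC, 2.61% and 3.76% in 5NC, 6.47% and 9.44% with overexpression, and 30.4% and 16.2% with knockdown. The last set was therefore largest in the knockdown libraries, above each of the other 6, and smallest in 5NC.

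**Figure D2:**
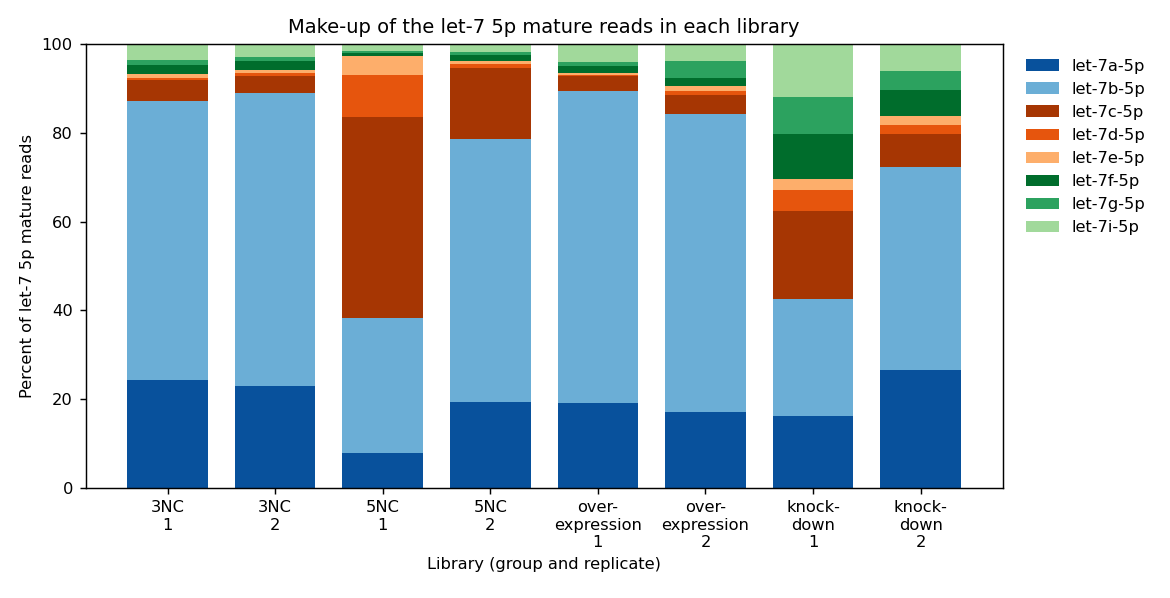
Share of each let-7 5p member (percent, stacked to 100) in the mature let-7 5p reads of each of the 8 libraries. Let-7a-5p and let-7b-5p (blue) take 84.1% to 89.3% in 3NC and with overexpression, let-7c-5p, let-7d-5p and let-7e-5p (orange) 59.1% in the first 5NC library, and let-7f-5p, let-7g-5p and let-7i-5p (green) 30.4% and 16.2% with knockdown.

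Each of the last 3 members took its largest shares with knockdown. Let-7f-5p took 10.05% and 5.87% of the family there and at most 2.15% in any other library. Let-7i-5p took 11.9% and 6.18% with knockdown and at most 4.06% elsewhere, and let-7g-5p 8.48% and 4.11% against at most 3.76%, the latter in the second overexpression library. In that library, which also had few miRNA reads, let-7f-5p (1.85%) and let-7i-5p (3.83%) lay within the range of the other 5 libraries without knockdown, while let-7g-5p and the sum of the 3 members (9.44%) lay above it. The part of low miRNA reads in the shares was not tested. In the hairpin rows the knockdown shares were also above the other 6 libraries for all 3 members, with 10.02% and 10.8% against at most 2.90% for let-7f-5p. A higher share of these members is also a lower share of let-7a-5p and let-7b-5p. In CPM the levels of the 3 members with knockdown were below or overlapped those of 3NC. As a percentage of miRNA reads, with no TMM factor, let-7f-5p was higher with knockdown (0.898% and 0.513%) than in 3NC (0.402% and 0.344%). So was let-7g-5p (0.757% and 0.359% against 0.202% and 0.158%), while let-7i-5p overlapped (1.06% and 0.540% against 0.676% and 0.545%). With this scaling by miRNA totals, the median log2 fold change of all 604 rows tested was itself 1.45 for knockdown against 3NC. A rise was thus common among all rows, and the share of rows higher without overlap was not counted on this measure.

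Neighbouring genes gave ratios of reads that also need no scaling. Let-7a-5p over let-7b-5p was 0.388 and 0.346 in 3NC, 0.260 and 0.328 in 5NC, 0.271 and 0.257 with overexpression, and 0.615 and 0.576 with knockdown. The knockdown libraries lay above the other 6 in the mature rows, and also in the hairpin rows, with 0.552 and 0.628 against at most 0.508. Let-7d-5p over let-7f-5p was 16.0 in the first 5NC library and 0.593 in the second, and 0.170 to 0.535 in the remaining libraries. The ratio of this neighbouring pair thus stood apart in 1 library, the first of 5NC. Its hairpin rows gave 23.5 and 0.567 in 5NC and 0.118 to 0.713 elsewhere.

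Let-7c-5p and its neighbour miR-99a-5p, a miRNA known to target the growth kinase gene MTOR in human cells, had a similar ratio in both 5NC libraries. It was 2.23 and 1.71 in 3NC, 3.50 and 3.16 in 5NC, 1.73 and 0.285 with overexpression, and 1.55 and 0.727 with knockdown. Outside the first 5NC library this ratio varied more widely (0.285 to 3.16) than let-7d-5p over let-7f-5p (0.170 to 0.593). MiR-99a-5p had 34072 CPM in the first 5NC library against 3421 to 9658 CPM in the other 7, so let-7c-5p and its neighbour were both highest in that library. MiR-99b-5p, the neighbour of let-7e-5p, had 164908 CPM there against 3837 to 56462 CPM elsewhere. Let-7e-5p over miR-99b-5p varied from 0.0131 in the second overexpression library to 0.193 in the first knockdown library, and its knockdown ratios, 0.193 and 0.180, were above the other 6, which was not so in the hairpin rows, where the first overexpression library had 0.682 and the knockdown libraries 0.474 and 0.476.

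**Figure D3:**
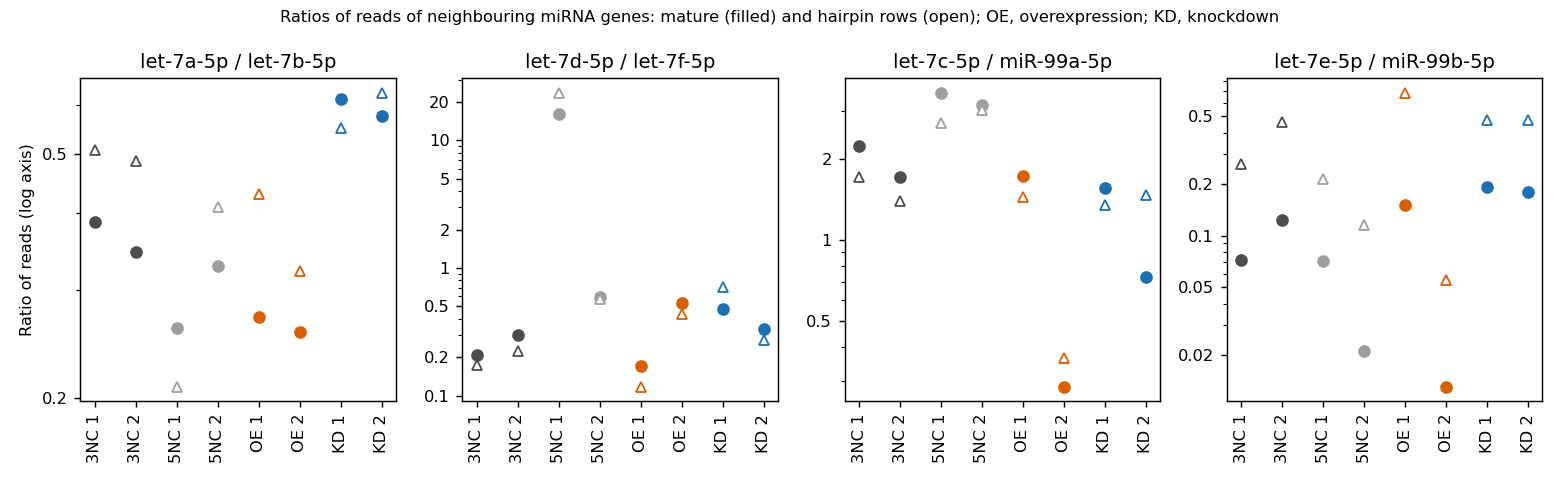
Ratio of reads (log axis) for 4 pairs of neighbouring miRNA genes in each library; filled circles are mature rows, open triangles hairpin rows, colours mark the groups. Let-7a-5p over let-7b-5p is highest in the knockdown libraries (0.576 and 0.615 in mature rows), and let-7d-5p over let-7f-5p stands at 16.0 in the first 5NC library.

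Marker miRNAs of several cell types differed between the same libraries, and their part in the let-7 differences was not tested. In the first 5NC library the 8 mature rows of the epithelial list (miR-200a, miR-200b, miR-200c, miR-141, miR-429, miR-183, miR-182 and miR-96) summed to 10639 CPM, against 66.9 to 654 CPM in the other 7, with miR-141, miR-200a and miR-200b at 0 reads in the second 5NC library, while the 6 mesenchymal rows (miR-143-3p, miR-145-3p, miR-145-5p, miR-199a-5p, miR-214-3p and miR-214-5p) summed to 274 CPM against 3414 to 25910 CPM. Other epithelial rows at 0 reads were miR-141 and miR-96 in the second 3NC library, miR-200a and miR-429 in the first overexpression library and miR-96 in the second, and miR-145-3p was at 0 in the first 5NC and second overexpression libraries. Of the 2 endothelial rows, miR-126-5p had 0 reads in all libraries but the first of 3NC, and with miR-126-3p it summed to 7312 and 8038 CPM with knockdown and 4888 CPM in the second overexpression library, against 139 to 479 CPM in the other 5. The 4 blood rows (miR-144-3p, miR-150, miR-223-3p and miR-451-5p) had 2742 CPM in the second overexpression library, 2800 CPM and 3763 CPM with knockdown and 235 to 676 CPM in the other 5, with miR-144-3p at 0 reads in 6 libraries. The 4 muscle rows (miR-1, miR-133a-3p, miR-133b and miR-206) reached 5367 CPM in the second knockdown library, against 17.4 to 828 CPM in the others, and the liver miRNA miR-122 7563 CPM there, against 17.1 to 2132 CPM. MiR-206 was at 0 reads in 4 libraries, the first of 3NC, overexpression and knockdown and the second of 5NC, and miR-133b in the first of 3NC.

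Knockdown against 3NC asked which let-7 guide arms differ when circRNA28250 is inhibited. Let-7b-5p had the largest difference, a log2 fold change of −3.65 ± 1.20 (SE, n = 2 per group, edgeR adjusted p = 0.443), followed by let-7a-5p with −2.95 ± 1.20 (edgeR adjusted p = 0.443). Their hairpin rows had −3.21 ± 1.16 and −2.96 ± 1.26. Neither passed the test: edgeR's quasi-likelihood test with Benjamini-Hochberg adjustment called 0 of 8 mature and 0 of 8 hairpin rows, on a background of 0.0% of the 604 rows. At an unadjusted p under 0.05 it had 2 of 8 mature and 2 of 8 hairpin rows, let-7a-5p and let-7b-5p in each case, against 11.1% of all rows, and DESeq2 called 0 of the 16 where it called 5.62% of the rows it tested.

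The remaining members lay nearer to 0, from −1.25 ± 1.19 for let-7i-5p to 0.05 ± 1.35 for let-7d-5p, with let-7g-5p at −0.00 ± 0.94. The median of the 8 mature rows was −1.10, beside −0.08 over all rows tested. In CPM, 6 of 8 mature rows were lower and 0 higher with knockdown without overlap between groups. On the same measure 33.6% of all rows were lower and 20.7% higher. As a percentage of miRNA reads, with no TMM factor, only let-7a-5p and let-7b-5p stayed lower without overlap. Let-7d-5p, let-7e-5p, let-7f-5p and let-7g-5p were then higher, let-7e-5p with 0.214% and 0.181% against 0.159% and 0.125%. The remaining members overlapped, and the background was not counted on this measure. The directions depend on the scaling: with miRNA totals in place of TMM factors let-7c-5p, let-7e-5p, let-7f-5p, let-7g-5p and let-7i-5p had log2 fold changes above 0 (0.39 to 1.63) and the median of the 8 was 0.55, all relative to a median of all rows that this scaling moved from −0.08 to 1.45. The mature rows of let-7a-5p and let-7b-5p stayed below 0 under each alternative run. By their share of the family, 6 members were higher and let-7b-5p lower with knockdown without overlap, but 62.5% of the 224 known mature rows tested were also higher when set against the same let-7 sum, and 8.48% lower, so a higher share was common among all miRNAs here.

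Against 5NC in place of 3NC the knockdown group had let-7b-5p at −2.69 and let-7a-5p at −1.69 (edgeR adjusted p = 0.315 and 0.488), and let-7c-5p at −3.71 (0.293). Let-7f-5p and let-7g-5p then lay above 0, at 0.82 and 1.19.

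Overexpression against 5NC asked which let-7 guide arms differ when more circRNA28250 is supplied. The lower side held let-7d-5p (log2 fold change −3.85 ± 1.52, edgeR adjusted p = 0.577), let-7c-5p (−2.97 ± 1.34, 0.585) and let-7e-5p (−1.95 ± 1.29, 0.595), and the other 5 members lay above 0, among them let-7b-5p at 1.13 ± 1.09 and, as the highest, let-7i-5p at 1.65 ± 1.20. The median of the 8 mature rows was 1.06, beside 0.27 over all rows tested. EdgeR called 0 of 8 mature and 0 of 8 hairpin rows, where it called 0.0% of all rows. At an unadjusted p under 0.05 it had let-7d-5p among the mature rows and let-7c-5p and let-7d-5p among the hairpin rows, against 8.11% of all rows, and DESeq2 called 0 of 16 against 7.78%.

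Few of these rows kept the groups apart. Without overlap, 1 mature row was higher (let-7g-5p) and 1 lower (let-7c-5p), where 15.7% of all rows were higher and 17.5% lower, and 6 rows overlapped. Without the first 5NC library let-7d-5p stood at −0.46 and let-7c-5p at −1.45, and let-7e-5p turned to 0.48, and without the first overexpression library let-7a-5p, let-7b-5p, let-7f-5p and let-7i-5p turned to −1.87, −1.66, −1.25 and −1.15, so the 3 lower differences shrank or turned without 1 library, and 4 of the 5 higher ones turned without another. By share of the family, let-7b-5p, let-7f-5p, let-7g-5p and let-7i-5p were higher and let-7c-5p lower with overexpression without overlap, where 10.3% of known mature rows were higher and 14.3% lower against the same sum.

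**Figure D4:**
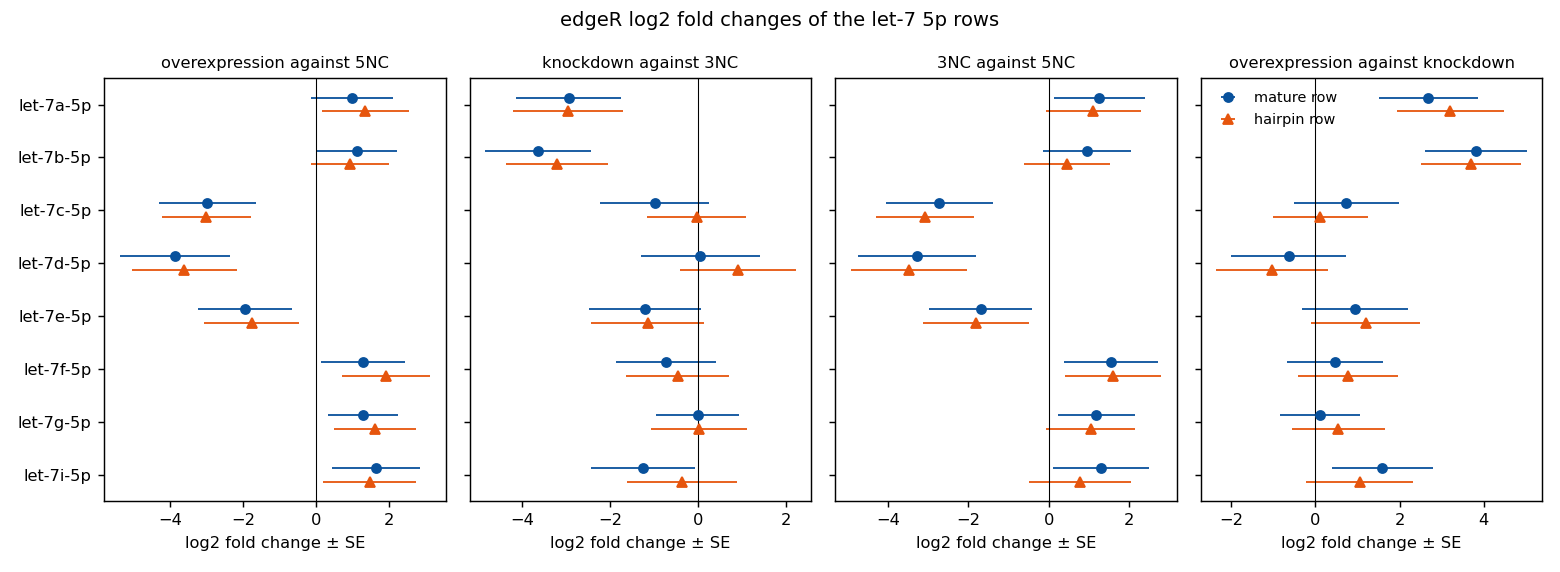
EdgeR log2 fold changes (points) with SE (bars) of the 8 let-7 5p names in 4 comparisons of 2 against 2 libraries; circles are mature rows, triangles hairpin rows. Let-7a-5p and let-7b-5p lie farthest below 0 with knockdown against 3NC (−2.95 and −3.65 in mature rows), let-7c-5p, let-7d-5p and let-7e-5p below 0 in both comparisons with 5NC, and no point passes the adjusted threshold.

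The controls also differed from each other, by log2 fold changes near those of overexpression against 5NC. For let-7a-5p and let-7b-5p the differences between controls, 1.26 and 0.96, were smaller than those with knockdown against 3NC (−2.95 and −3.65). With 3NC against 5NC, let-7d-5p had a log2 fold change of −3.27 ± 1.48 (edgeR adjusted p = 0.695), let-7c-5p −2.72 ± 1.32 and let-7e-5p −1.69 ± 1.28, whereas the other 5 lay between 0.96 ± 1.09 (let-7b-5p) and 1.56 ± 1.16 (let-7f-5p). The median of the 8 mature rows was 1.08, beside 0.28 over all rows tested. EdgeR called 0 of 16 rows against 0.0% of all rows and DESeq2 0 of 16 against 6.36%, and at an unadjusted p under 0.05 edgeR had 0 mature rows and 2 hairpin rows (let-7c-5p and let-7d-5p) against 6.95%. Without overlap, 5 mature rows were higher in 3NC (let-7a-5p, let-7b-5p, let-7f-5p, let-7g-5p and let-7i-5p) and 1 lower (let-7c-5p), on a background of 31.5% and 18.5%. By share, the same 5 were higher and let-7c-5p and let-7d-5p lower, against 23.7% and 28.6% of known mature rows. Without the first 5NC library let-7d-5p and let-7e-5p turned to 0.12 and 0.73, and let-7c-5p stood at −1.20. This comparison shares its libraries with both of those above, so the values are given side by side only, and the 2 comparisons with 5NC share the 5NC libraries.

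Overexpression against knockdown set the groups changed in opposite directions against each other. Let-7b-5p had a log2 fold change of 3.82 ± 1.21 (edgeR adjusted p = 0.490) and let-7a-5p 2.68 ± 1.18 (0.539), while the rest lay between −0.63 ± 1.36 (let-7d-5p) and 1.59 ± 1.20 (let-7i-5p). EdgeR called 0 of 16 rows against 0.0% of all rows, with 1 mature and 2 hairpin rows at an unadjusted p under 0.05 against 8.94%, and DESeq2 called 0 of 16 against 2.74%. In CPM, without overlap, 1 mature row was higher with overexpression (let-7b-5p) and 0 lower, on a background of 23.0% and 18.2%. As a percentage of miRNA reads let-7b-5p overlapped (19.3% and 3.39% against 2.36% and 4.01%). Let-7d-5p, let-7e-5p, let-7f-5p and let-7g-5p were then lower without overlap, and the background was not counted on this measure. Without the first overexpression library let-7b-5p stood at 1.02, let-7a-5p turned to −0.19, and let-7c-5p, let-7e-5p, let-7f-5p, let-7g-5p and let-7i-5p turned to between −0.73 and −2.07. This comparison shares libraries with both treated comparisons above, and with miRNA totals the median of the 8 mature rows was −0.97 in place of 0.84, relative to a median of all rows that moved from 0.17 to −1.17. By share of the family, let-7b-5p was higher and 6 members were lower with overexpression, against 6.25% and 34.8% of known mature rows.

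Members that varied alike across libraries were not always neighbours in the genome. Over the 8 libraries, which share 1 set of scaling factors and differ in depth, the log2 CPM of let-7a-5p and let-7b-5p, which neighbour each other, had a Pearson r of 0.97, but that of let-7d-5p and let-7f-5p was 0.04. The r was 0.89 to 0.91 among let-7c-5p, let-7d-5p and let-7e-5p and 0.77 to 0.92 among let-7f-5p, let-7g-5p and let-7i-5p. Pairs of let-7a-5p or let-7b-5p with let-7f-5p, let-7g-5p or let-7i-5p had 0.21 to 0.82, so these sets were not separate by r. By Spearman correlation let-7c-5p with let-7d-5p had 0.60, let-7d-5p with let-7e-5p 0.64 and let-7c-5p with let-7e-5p 0.86. Let-7a-5p with let-7e-5p had 0.71. These values describe 8 points in 4 groups, of which the first 5NC library is far from the rest for let-7c-5p, let-7d-5p and let-7e-5p.

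Of the miRNAs tied to the family, miR-98-5p is counted as a further member, with the same seed. It had 449 and 519 CPM in 3NC, 165 and 180 CPM in 5NC, and 326 and 115 CPM with knockdown. With overexpression it had 609 and 8.01 CPM, the latter from 4 reads. In every library it lay below each let-7 5p member. Its log2 fold change was −1.13 with knockdown and 0.84 with overexpression, neither past the test. Of the 10 mature rows of miRNAs that mammals make from transcripts shared with let-7 (miR-99a, miR-99b, miR-100, miR-125a and miR-125b) 9 were tested, and neither edgeR nor DESeq2 called one in the 4 comparisons. With knockdown against 3NC, 8 of 9 were lower (median −0.79), beside 312 of the 604 rows tested (median −0.08), and with overexpression against 5NC 5 of 9 (median −0.34), beside 260 of 604 (median 0.27). Of the 8 mature rows of let-7 3p arms, cut from the other side of the hairpin, 6 were tested, and edgeR called 0 in each of the 4 comparisons. DESeq2 called the mature row of let-7b-3p with knockdown against 3NC (DESeq2 adjusted p = 0.00032, where edgeR gave a log2 fold change of −5.82 ± 1.16 and an adjusted p of 0.443). It also called that row with overexpression against knockdown (DESeq2 adjusted p = 0.0227). Among the hairpin rows of these partners DESeq2 called let-7d-3p with knockdown against 3NC (DESeq2 adjusted p = 0.0096, edgeR 0.443). The hairpin row of miR-99b-3p was called with overexpression against 5NC (DESeq2 adjusted p = 0.0208, edgeR 0.577) and with 3NC against 5NC (DESeq2 adjusted p = 0.0167, edgeR 0.622). As a share of both arms in mature rows let-7d-5p made up 94.9% and 93.7% with knockdown and 34.4% to 72.3% in the other 6 libraries. In the hairpin rows of the same arms let-7d-5p made up 62.9% and 55.2% with knockdown and 2.92% to 14.2% in the other 6, so there the 3p arm held most reads outside knockdown. Let-7a-5p made up at least 99.8% in the mature rows of each library.

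Among the 210 mature rows of known miRNAs outside let-7 that passed the filter, those most like the summed let-7 5p level over the 8 libraries were miR-27a-5p (Pearson r of log2 CPM 0.91, Spearman 0.86), miR-15b-3p (0.91 and 0.95) and miR-532-5p (0.88 and 0.90). Without the 2 libraries farthest from the median let-7 level, the second of overexpression and the second of knockdown, r was 0.90, 0.80 and 0.93 over 6 libraries. Of these, miR-27a-5p and miR-15b-3p were low, at 15.5 to 289 CPM and 3.11 to 67.6 CPM, and miR-532-5p had 202 to 4601 CPM. With knockdown miR-15b-3p had 16.4 and 3.11 CPM, which stand for 6 reads and 1 read, and it had 6.01 CPM in the second overexpression library. MiR-27a-5p had 24.6 and 15.5 CPM with knockdown, so the r of both rests partly on very low counts. MiR-98-5p, for comparison, had 0.64 over 8 libraries and 0.33 over 6. The levels rest on the same libraries, depths and scaling factors, and no test was made of these values, which were picked as the highest of 210.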

How the data were processed

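Small RNA of goat mammary gland cells was sequenced in 8 libraries, 2 per group. Per the file headers, the deposited table has 2 columns a library, reads counted per row and their TPM. The counts are whole and unscaled, and the deposited TPM equals the count over the column total times 1000000 within 0.0141% for rows of at least 1000 reads, with no length term. Only counts were tested. Not given in the sources used here are the aligner, the counter, the genome build and the handling of reads with several matches. The 4 summed classes without a name (exon, intron, intergenic, repeat) were left out, and mature, hairpin and predicted miRNA rows were kept apart, 1328 in all. Whether a read can be counted in more than 1 row is not given.

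The deposited counts entered edgeR 4.0.16 (R 4.3.3) with TMM factors of 0.553 to 2.63 and the filterByExpr filter (minimum count 10). The factors were 2.06 and 2.63 in the knockdown libraries and 1.25 in the second overexpression library. In the controls and the first overexpression library they were 0.553 to 0.768, and a higher factor gives a lower CPM. A single robust quasi-likelihood fit over the 8 libraries, leaving 4 residual degrees of freedom, gave p-values that were two-sided, adjusted by Benjamini-Hochberg over 604 rows, threshold 0.05. The SE is the absolute log2 fold change over the square root of F and is approximate. The biological coefficient of variation was 1.15. No exact permutation test was used, because with 2 libraries a side its p is at least 0.333. DESeq2 1.42.0 was an alternative, with missing adjusted p-values left missing. Scripts were tested on simulated counts. The members and lists were chosen with earlier results of these data known. All 8 members are named. Partners and marker rows were chosen whatever their values, and the 3 most alike rows are those with the highest r to the summed level. Intervals cover counting error only, since reads lack molecular identifiers and may copy the same molecule.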

Additional observations from a re-analysis of the deposited data

How the results depend on the processing

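The call of 0 of 8 mature and 0 of 8 hairpin let-7 5p rows held in all 4 comparisons under each alternative run, with a lowest adjusted p of 0.051 for a mature row. Calls over all rows, 0 in the main fit, moved with overexpression against 5NC to 36 (DESeq2), 6 (no filter) and 1 (named small RNA totals), and were 0 to 29 without 1 library, 29 being without the second 5NC library. They moved to 28 with knockdown against 3NC (DESeq2), to 22 (DESeq2) and 1 (no filter) between controls, with 0 to 27 without 1 library (27 without the second 5NC library), and to 13 for overexpression against knockdown (DESeq2).

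Log2 fold changes of mature rows turned sign as follows, and beyond the settings' own construction the cause was not tested. With knockdown against 3NC, miRNA totals gave 0.63 (let-7c-5p), 0.47 (let-7e-5p), 0.92 (let-7f-5p), 1.63 (let-7g-5p) and 0.39 (let-7i-5p). Let-7d-5p turned to −1.59 with named small RNA totals, −0.014 with mature and predicted rows only, −0.58 with the replicate block, −3.22 against 5NC and −1.58 against both controls. Let-7g-5p turned to 0.21 with DESeq2 and 0.21 with its size factors, 0.046 with mature and hairpin summed, 0.075 with only the groups compared, 1.19 against 5NC and 0.59 against both controls. Let-7f-5p turned to 0.82 and 0.043 against those controls, and let-7i-5p to 0.063 against 5NC. Overexpression against 3NC gave −0.27 (let-7a-5p) and −0.26 (let-7f-5p). For overexpression against knockdown, miRNA totals gave −1.08 (let-7c-5p), −0.86 (let-7e-5p), −1.39 (let-7f-5p), −1.45 (let-7g-5p) and −0.29 (let-7i-5p). Let-7d-5p turned to 0.94 with named small RNA totals, and let-7g-5p to −0.030 with DESeq2 and its size factors and −0.0016 with only the groups compared. Without 1 library in turn, overexpression against 5NC ranged from −1.87 to 1.71 (let-7a-5p), −1.66 to 1.85 (let-7b-5p), −3.75 to 0.48 (let-7e-5p), −1.25 to 1.99 (let-7f-5p) and −1.15 to 2.40 (let-7i-5p). Knockdown against 3NC ranged from −1.03 to 0.49 (let-7d-5p) and −0.88 to 0.38 (let-7g-5p), and 3NC against 5NC from −4.20 to 0.12 (let-7d-5p) and −2.55 to 0.73 (let-7e-5p). Overexpression against knockdown ranged from −0.19 to 3.25 (let-7a-5p), −1.67 to 1.89 (let-7c-5p), −1.78 to 0.45 (let-7d-5p), −0.85 to 1.51 (let-7e-5p), −2.07 to 1.19 (let-7f-5p), −0.73 to 0.9998 (let-7g-5p) and −1.22 to 2.40 (let-7i-5p). These turns came from leaving out the first overexpression library, the first 5NC library, either knockdown library, and for let-7d-5p and let-7g-5p also the first 3NC library and, for let-7g-5p, the second overexpression library.

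The deviations of libraries with the same replicate number had correlations of −0.061 to 0.29 over the 6 pairs of groups, 4 of them over 0.1, so the numbers were not taken to pair the libraries throughout. The fit with the replicate block called 0 rows in each comparison and 0 let-7 rows. Shares of members read from hairpin rows moved by over 1 SD in 14 of 32 values of member and group, and from summed rows in 5 of 32. The few miRNA reads of the knockdown libraries and the second overexpression library limit the precision of the rarer members, above all let-7d-5p.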
